A study of Homo sapiens with 8 samples.

Results

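The EGF receptors and their ligands were followed in HaCaT keratinocytes as 9 genes, chosen by name: the receptors EGFR, ERBB2 and ERBB3, and the ligands AREG, EREG, HBEGF, TGFA, BTC and EPGN. All 9 were among the 17131 genes of the table, and all 9 had enough counts to be tested. HaCaT, a human keratinocyte cell line derived from epidermis, was used without genetic change (wild type). All 8 cultures belonged to the M5 model, a psoriasis-like state reached after 24 h with 5 cytokines, namely oncostatin M, TNF-α, IL-1α, IL-17A and IL-22, at a concentration of 10 ng/mL each. OTS514, an inhibitor of the kinase TOPK (gene PBK), was given according to the methods at 10 nM for 12 h beforehand. The methods then describe joint treatment with the cytokines, so OTS514 was also present during those 24 h. There were 4 libraries titled M5_O5 and 4 titled M5, and their labels contradict each other. By title, OTS514 was added in M5_O5, yet the treatment field of those libraries says that none was given and gives the TOPK inhibitor to M5 instead. The groups are therefore called by their titles, every direction is stated between titles, and no direction can be read as an effect of OTS514. No culture without M5 was analysed here, a single cell line was used, and nothing in the labels says whether the 4 libraries of a group came from separate experiments, so p-values measure the spread between these libraries only.

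EGF family ligands are made as membrane-bound precursors and are released by proteases such as ADAM17 and ADAM10. Each carries an EGF-like module, a short fold held by disulfide bonds between its cysteines, through which it binds EGFR, the receptor tyrosine kinase that pairs with itself or with ERBB2 or ERBB3 and signals through RAS, ERK and PI3K. ERBB2 has no known ligand of its own and ERBB3 is a weak kinase that binds neuregulins. In the epidermis these ligands come largely from the keratinocytes themselves and are known for their roles in proliferation, migration and wound repair.

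The module that makes these genes ligands of EGFR is shown as coding sequence, 5′ to 3′, with the cysteine codons in capitals. The sequences were read from the GENCODE transcripts of GRCh38 that match the leading RefSeq transcript of each ligand in the table, and a search for 6 cysteines at the spacing of the family found the module in all 6 ligands and in 17 of 19669 protein-coding genes. In each ligand the module is 108 bases and is coded by parts of exons 3 and 4.
AREG, chr4:74449172-74450410, plus strand: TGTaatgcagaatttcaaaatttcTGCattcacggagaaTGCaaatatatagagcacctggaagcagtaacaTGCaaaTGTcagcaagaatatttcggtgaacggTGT
EREG, chr4:74381061-74382675, plus strand: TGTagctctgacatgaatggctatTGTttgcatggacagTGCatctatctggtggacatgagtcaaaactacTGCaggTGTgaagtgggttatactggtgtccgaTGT
EPGN, chr4:74312229-74313048, plus strand: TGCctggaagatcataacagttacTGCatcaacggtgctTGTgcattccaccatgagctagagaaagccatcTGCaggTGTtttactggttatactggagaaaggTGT
BTC, chr4:74750689-74755935, minus strand: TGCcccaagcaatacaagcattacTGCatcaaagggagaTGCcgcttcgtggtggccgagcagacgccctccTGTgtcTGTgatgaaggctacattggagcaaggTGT
HBEGF, chr5:140335997-140342711, minus strand: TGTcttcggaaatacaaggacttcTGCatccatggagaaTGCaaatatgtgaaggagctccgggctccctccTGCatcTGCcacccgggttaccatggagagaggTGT
TGFA, chr2:70456458-70465692, minus strand: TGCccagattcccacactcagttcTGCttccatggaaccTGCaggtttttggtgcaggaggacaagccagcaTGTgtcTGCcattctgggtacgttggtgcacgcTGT
The cysteine codons stand at matching places in the 6 modules, and the rest of the sequence differs widely. Translated, the modules of AREG and HBEGF were identical at 19 of 36 positions (52.8%), as were those of TGFA and BTC. The modules of AREG and BTC, which lie near each other on chromosome 4, were identical at 11 of 36 positions (30.6%), the lowest of the pairs.

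Sequencing depth was similar between the groups. The M5_O5 libraries held 16113015 to 16922693 counts and the M5 libraries 13708055 to 16847599, with M5 replicate 1 the smallest. Counts are given as CPM, scaled to library size by TMM, which corrects for the make-up of each library, and levels of different genes are compared only as TPM, which also divides by transcript length. A gene was past the threshold at an adjusted p under 0.05 in edgeR's quasi-likelihood test over 12434 genes. The median log2 fold change of all tested genes was 0.01. When library size was the only scaling it was 0.13, so that each log2 fold change of M5_O5 over M5 lay higher by about that much. PBK, the target of OTS514, was higher in M5_O5 (log2 fold change 1.32 ± 0.34 SE, adjusted p = 0.00738), and its CPM in M5 replicate 1 (2.63) lay within the M5_O5 range of 2.25 to 3.6, whereas the other M5 libraries were between 0.588 and 0.987. Without M5 replicate 1 the log2 fold change of PBK was 1.98 (adjusted p = 1.87e-05). For this reason results that moved without M5 replicate 1 are given without it too. All 10 keratinocyte markers were detected, with summed CPM of 18563 to 21204 in M5_O5 and 22133 to 26353 in M5. Of the 10, 7 were past the threshold as lower in M5_O5, against 17.6% of all tested genes. Markers of other cell types were mixed. Summed CPM was 33.1 to 36.59 in M5_O5 and 42.92 to 57.99 in M5 for 6 fibroblast markers, mostly COL1A1 (log2 fold change -0.58, adjusted p = 0.000168), whose partner COL1A2 had no counts in M5_O5 and at most 14 in M5. For 6 leukocyte markers it was 79.93 to 98.73 and 94.82 to 126.6, mostly CD68 (-0.45, adjusted p = 0.00675) and CD14 (-0.14, adjusted p = 0.121), while PTPRC had no counts in any library. It was below 1 for the 3 endothelial markers in the table, with PECAM1 and TEK at most 1 count, and 0.6975 to 1.091 and 0.803 to 0.9143 for the 3 melanocyte markers in the table.

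AREG, EPGN and EREG were higher in M5_O5, while ERBB3, TGFA and EGFR were lower. Of the 9 genes, 3 were past the threshold as higher, against 19.5% of all tested genes, and 3 as lower, against 17.6%. In either direction 37.1% of all genes passed. AREG and EPGN also passed a 2-fold threshold (a log2 fold change of 1), which 2.87% of all genes did as higher in M5_O5. EPGN passed it narrowly. Its log2 fold change was 0.99 without M5 replicate 2 and 0.93 without M5_O5 replicate 1. It was 0.86 with the expression level trend removed and 0.7 with limma on log2(TPM + 1). In the remaining alternatives it was 1.01 or more, whereas that of AREG was at least 1.54 in all. No member passed it as lower, where 0.33% of all genes did. The 4 libraries of one group lay beyond the 4 of the other for AREG and EPGN as higher (17.8% of all genes) and for EGFR, ERBB3 and TGFA as lower (15.8% of all genes). The median log2 fold change was -0.27 over the 3 receptors, 0.34 over the 6 ligands and 0.02 over the 9 genes. The ligands past the threshold lay in both directions, and both receptors past it were lower in M5_O5.

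**Figure D1:**
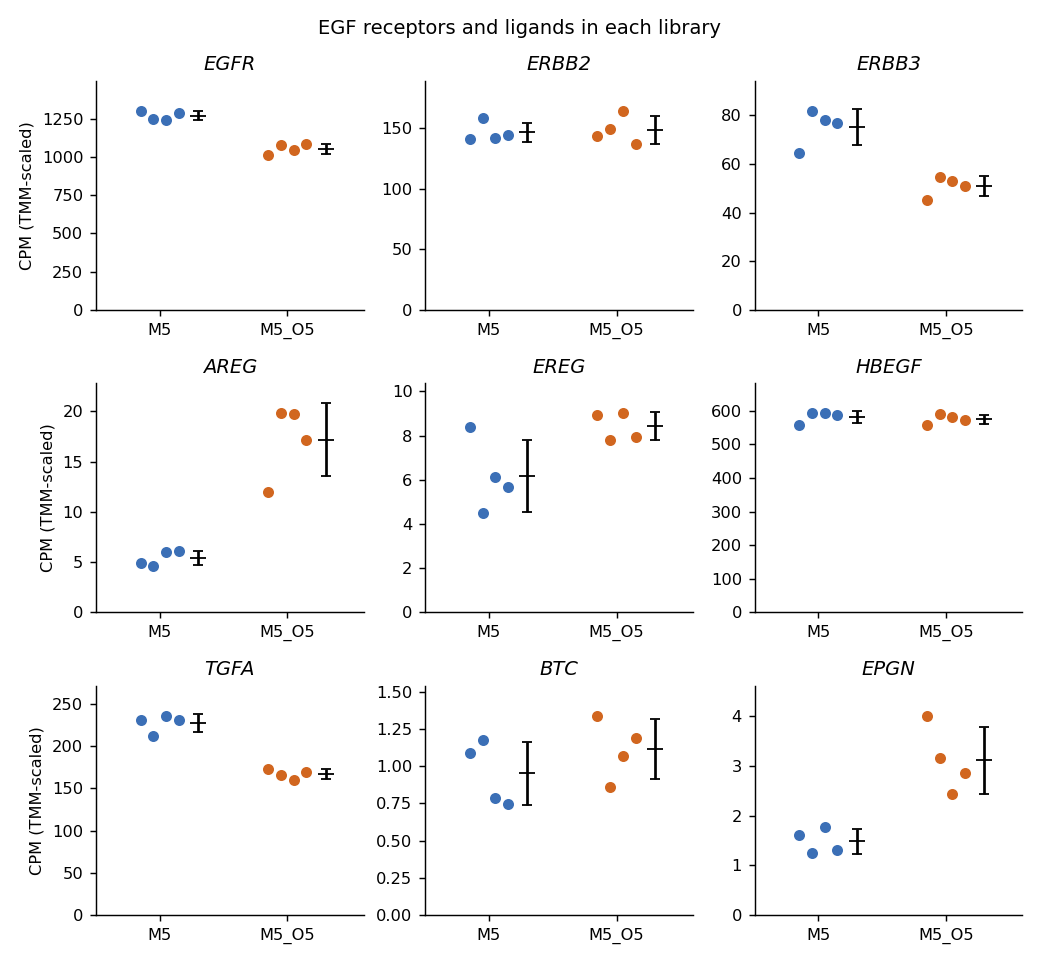
CPM after TMM scaling (y axis, from 0) of each gene in the 4 libraries titled M5 (blue) and the 4 titled M5_O5 (orange), with the group mean and SD in black. The groups do not overlap for AREG and EPGN, where M5_O5 is higher, and for EGFR, ERBB3 and TGFA, where M5 is higher.

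AREG, which encodes amphiregulin, a heparin-binding ligand of EGFR, showed the largest difference of the 9 genes. Its CPM was 12, 19.8, 19.7 and 17.2 in M5_O5 replicates 1 to 4 and 4.96, 4.64, 5.99 and 6.11 in M5 replicates 1 to 4. The lowest M5_O5 library, replicate 1, was still above every M5 library. The mean was 17.2 ± 3.64 (SD, n = 4) against 5.42 ± 0.734, and the 68 to 344 counts per library gave a 3.16-fold higher level (log2 fold change 1.66 ± 0.16 SE, 95% interval 1.32 to 2.0, adjusted p = 4.76e-06 in edgeR). For AREG the exact permutation test gave a two-sided p = 0.0286, the smallest that 4 against 4 libraries can give. Leaving out any library kept the log2 fold change of AREG between 1.59 and 1.8.

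EPGN, which encodes epigen, a ligand of low affinity for EGFR, was scarce but also clearly apart. It had 69, 55, 41 and 48 counts in the M5_O5 libraries (4.01, 3.16, 2.43 and 2.85 CPM) and 22, 19, 27 and 21 counts in the M5 libraries (1.61, 1.24, 1.78 and 1.31 CPM). Every M5_O5 library was above every M5 library. The difference was 2.1-fold (log2 fold change 1.07 ± 0.2 SE, 95% interval 0.64 to 1.51, adjusted p = 0.00106 in edgeR), with an interval wider than that of AREG at these low counts.

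EREG encodes epiregulin, which binds EGFR and ERBB4. Its CPM was 8.95, 7.81, 9.01 and 7.96 in M5_O5 and 8.39, 4.51, 6.12 and 5.67 in M5. The groups overlapped through M5 replicate 1, and the other 3 M5 libraries lay below all M5_O5 libraries. EREG was 1.37-fold higher in M5_O5 (log2 fold change 0.46 ± 0.15 SE, 95% interval 0.13 to 0.79, adjusted p = 0.0304 in edgeR), while the exact permutation test gave p = 0.0857. The call was lost when any of 5 libraries was left out, namely M5 replicates 2, 3 and 4 (edgeR adjusted p = 0.0942, 0.0673 and 0.0858) and M5_O5 replicates 1 and 3 (adjusted p = 0.0621 and 0.0696), and also once a trend of fold change with expression level was removed (0.29, adjusted p = 0.165). Without M5 replicate 1 the log2 fold change of EREG was 0.63 (adjusted p = 0.000917).

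TGFA encodes transforming growth factor alpha, a classical autocrine ligand of keratinocytes, and was lower in M5_O5. Its CPM was 173, 166, 160.1 and 169 in M5_O5 and 231, 212, 236 and 231 in M5. The groups did not overlap and each varied little. The log2 fold change was -0.44 ± 0.05 SE (95% interval -0.56 to -0.33, adjusted p = 2.91e-05 in edgeR), and it passed the threshold in all 18 alternatives. TGFA therefore changed in the direction opposite to AREG, EPGN and EREG.

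HBEGF, which encodes heparin-binding EGF-like growth factor, a ligand of EGFR and ERBB4 that promotes keratinocyte migration, was the most abundant ligand. Its CPM was 556, 589, 580.0 and 572 in M5_O5 and 556, 592, 592 and 587 in M5. The ranges were nearly the same, and the interval of the difference was narrow (log2 fold change -0.02 ± 0.05 SE, 95% interval -0.13 to 0.09, adjusted p = 0.788 in edgeR). The direction depended on the scaling. In TPM every M5_O5 library (453 to 467) was above every M5 library (410.0 to 449), scaled by library size alone the log2 fold change was 0.1 (adjusted p = 0.0924), and with the expression level trend removed it was 0.14 (adjusted p = 0.0495). BTC, which encodes betacellulin, another ligand of EGFR and ERBB4, had only 12 to 23 counts per library. Its CPM was 0.862 to 1.34 in M5_O5 and 0.748 to 1.18 in M5, and the interval of its log2 fold change, -0.30 to 0.76 (adjusted p = 0.488), leaves its direction undetermined at this depth.

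Among the receptors, ERBB3 differed most. Its CPM was 45.3, 54.7, 53.1 and 50.8 in M5_O5 and 64.7, 81.8, 77.9 and 76.9 in M5. Replicate 1 was the lowest library in both groups, and the groups did not overlap. ERBB3 was lower in M5_O5 by a log2 fold change of -0.56 ± 0.08 SE (95% interval -0.73 to -0.40, adjusted p = 0.000102 in edgeR), and it passed in all 18 alternatives, as AREG, EPGN and TGFA did.

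EGFR, the receptor shared by the 6 ligands, was lower in M5_O5 by a smaller amount. Its CPM was 1011, 1077, 1046 and 1081 in M5_O5 and 1300.2, 1245, 1243 and 1289 in M5. The groups did not overlap on this scale, and the log2 fold change was -0.27 ± 0.05 SE (95% interval -0.38 to -0.15, adjusted p = 0.00149 in edgeR). In TPM the groups overlapped, at 178 to 190.4 in M5_O5 and 184 to 225 in M5, and limma on log2(TPM + 1) gave -0.13 (adjusted p = 0.124). With the expression level trend removed the log2 fold change of EGFR was -0.09 (adjusted p = 0.244). Of the 10 keratinocyte markers, the 7 that were lower included TP63, a transcription factor of basal keratinocytes, at -0.29 (adjusted p = 0.000834) and KRT14, a basal keratin, at -0.4 (adjusted p = 0.000868). The other 3 did not pass, namely KRT5, the partner of KRT14, at -0.1 (adjusted p = 0.299), KRT6A at -0.12 (adjusted p = 0.191) and KRT17 at -0.12 (adjusted p = 0.393). The part of these markers, and of CD68 and COL1A1, in the lower EGFR, ERBB3 and TGFA was not tested, and in bulk RNA fewer cells of a type and less RNA per cell cannot be told apart.

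ERBB2, the partner receptor without a known ligand, had CPM of 143, 149, 164 and 137 in M5_O5 and 141, 158, 142 and 144 in M5. The groups overlapped over most of their range, and the log2 fold change was 0.02 ± 0.06 SE (95% interval -0.12 to 0.16, adjusted p = 0.832 in edgeR).

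**Figure D2:**
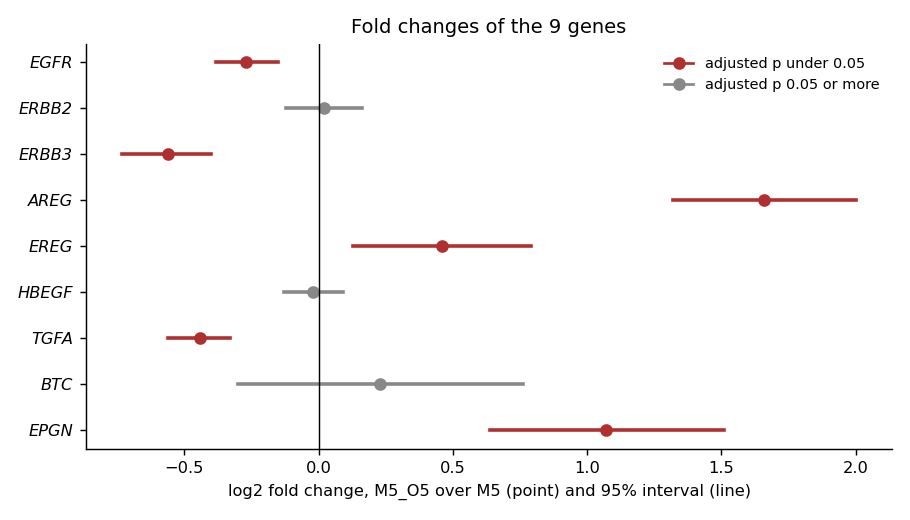
Log2 fold change of M5_O5 over M5 (x axis) for each gene, as points with 95% intervals from edgeR, in red where the adjusted p was under 0.05. AREG at 1.66 and EPGN at 1.07 lie furthest to the right, ERBB3 at -0.56 furthest to the left, and the intervals of ERBB2, HBEGF and BTC include 0.

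Per transcript length, the 9 genes spanned a wide range and kept nearly the same order in both groups. In M5_O5 mean TPM was 460.0 for HBEGF, 182 for EGFR, 72 for TGFA, 57.1 for ERBB2, 30.6 for AREG, 18.6 for ERBB3, 3.21 for EREG, 2.23 for EPGN and 0.907 for BTC. In M5 the corresponding means were 428, 201, 89.9, 51.8, 8.89, 26.5, 2.18, 0.982 and 0.76. AREG and ERBB3 exchanged places, with AREG above ERBB3 in M5_O5 and below it in M5. Of the neighbours in the order, the library ranges overlapped for EREG and EPGN in M5_O5 and for EPGN and BTC in M5.

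**Figure D3:**
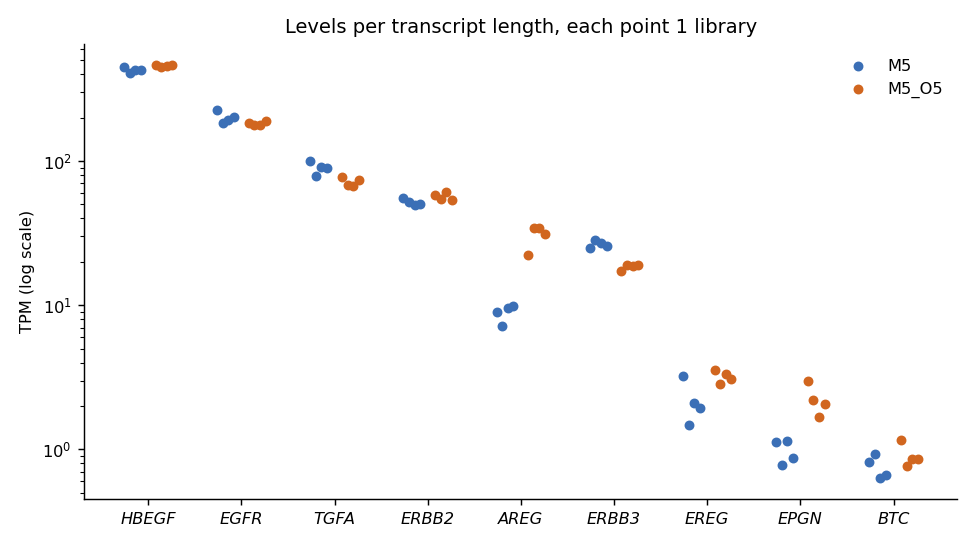
TPM (y axis, log scale) of each gene in every library, with genes ordered by their mean in M5_O5, M5 in blue and M5_O5 in orange. HBEGF and EGFR are the most abundant in both groups, and AREG is above ERBB3 in M5_O5 and below it in M5.

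The ligand pool was dominated by HBEGF in both groups. HBEGF made up 80.9% ± 0.219 (SD, n = 4) of the summed ligand TPM in M5_O5 and 80.7% ± 1.04 in M5. The share of AREG was 3.88, 6.11, 6.13 and 5.41% in M5_O5 and 1.59, 1.44, 1.8 and 1.87% in M5, and that of TGFA was 12 to 13.6% against 15.8 to 17.8%. Neither range overlapped its counterpart, so AREG held more and TGFA less of the pool in M5_O5. Summed ligand TPM was 569 ± 8.37 in M5_O5 and 531 ± 26 in M5, with overlapping ranges. In CPM after TMM, which is scaled differently and not divided by transcript length, the direction of the ligand sum was opposite. Summed ligand CPM was 754.8 to 786.6 in M5_O5 and 803.4 to 842.5 in M5. Summed receptor TPM, mostly EGFR, was 251 to 263 in M5_O5 and 265 to 305 in M5, a log2 difference of -0.111, which was -0.067 without M5 replicate 1. These sums and shares are descriptions of the 9 genes and were given no test.

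The balance of transcripts within each gene was also examined. AREG, EREG and HBEGF were each listed with 1 transcript, and the leading transcript carried 98.8% of the counts of EGFR and 96.6% of those of ERBB3. ERBB2 was listed with 31 transcripts, the most of the 9 genes, and TGFA had 2 main transcripts with mean shares of 69.7% and 29.1%. Of the 6 transcripts of ERBB2 and TGFA with enough counts and a mean share between 5% and 95%, none differed in share between the groups at an unadjusted exact permutation p under 0.05, the lowest being p = 0.171. With shares of estimated counts among many similar transcripts, such as those of ERBB2, this says little about small shifts.

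The genes EPGN, EREG, AREG and BTC follow each other on chromosome 4 next to the ELR chemokine genes. Along the order CXCL8, CXCL6, PF4V1, CXCL1, PF4, PPBP, CXCL5, CXCL3, CXCL2, MTHFD2L, EPGN, EREG, AREG and BTC, taken from RefSeq on GRCh38.p14, 12 of 14 protein-coding genes were tested, 10 were higher in M5_O5 and 0 were lower by edgeR. None of the 12 had a log2 fold change below 0, so 0 were also lower at an unadjusted p under 0.05. Of all tested genes, 19.5% were higher in M5_O5 by edgeR and 17.6% were lower. Of the 8 tested genes that are not EGF ligands, 7 were higher, with MTHFD2L, a mitochondrial folate enzyme, the exception at 0.26 (adjusted p = 0.294). PPBP, a platelet chemokine precursor, was at 1.73 (adjusted p = 8.06e-06), close to AREG. The ligands outside this stretch, HBEGF on chromosome 5 and TGFA on chromosome 2, were not higher by the same fit. Neither was BTC within it, at 0.23 (adjusted p = 0.488 in edgeR). EREG, counted here as higher, lost its call in 6 of 18 alternatives. This stretch was looked at with the values of its chemokines known, so the count is a description.

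**Figure D4:**
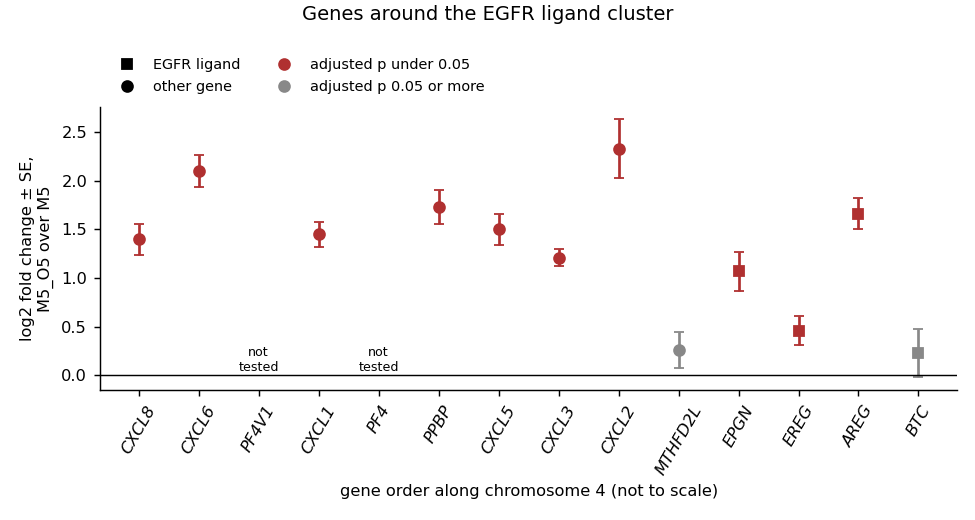
Log2 fold change of M5_O5 over M5 (y axis, with SE) of 14 genes in their order along chromosome 4 (x axis, not to scale), squares for EGF ligands, circles for other genes, red where the adjusted p was under 0.05. All 12 tested genes lie above 0, and MTHFD2L and BTC have an adjusted p of 0.05 or more.

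Since AREG, EPGN and EREG were higher together, the 250 bases before their start sites are shown from RefSeq promoter windows on GRCh38.p14, in lower case with motif matches in capitals.
AREG, chr4:74444886-74445135, plus strand: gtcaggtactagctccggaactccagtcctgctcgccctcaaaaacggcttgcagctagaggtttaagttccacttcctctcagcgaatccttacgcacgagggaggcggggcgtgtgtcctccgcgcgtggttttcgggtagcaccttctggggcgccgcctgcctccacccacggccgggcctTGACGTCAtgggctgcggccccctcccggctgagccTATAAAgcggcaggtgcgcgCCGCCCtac
EPGN, chr4:74308220-74308469, plus strand: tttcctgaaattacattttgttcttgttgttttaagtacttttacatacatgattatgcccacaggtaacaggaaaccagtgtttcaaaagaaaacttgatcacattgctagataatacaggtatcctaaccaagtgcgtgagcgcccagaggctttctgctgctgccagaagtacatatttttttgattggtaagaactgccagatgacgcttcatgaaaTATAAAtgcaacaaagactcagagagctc
EREG, chr4:74364895-74365144, plus strand: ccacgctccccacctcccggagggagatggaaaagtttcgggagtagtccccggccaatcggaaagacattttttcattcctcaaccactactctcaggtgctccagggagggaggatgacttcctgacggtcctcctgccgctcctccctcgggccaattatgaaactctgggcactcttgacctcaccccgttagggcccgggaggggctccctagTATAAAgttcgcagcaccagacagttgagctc
Motifs were searched on both strands, and no match of one overlapped a match of another in these 3 windows. The TATA letters TATAAA stood 29 to 24 bases before the start in AREG and in EPGN and 32 to 27 bases before it in EREG, and 10.7% of 35116 windows of the same length held them. The windows of TGFA, HBEGF, BTC and ERBB2 did not hold these exact letters, and of the EGFR windows the one further downstream did. Near matches were not searched. The BTC window holds GATAAA close to the start, which differs from TATAAA only in the first letter, so BTC cannot be said to lack a TATA-like stretch. The cAMP response element TGACGTCA, 65 to 58 bases before the AREG start, was held by 1.65% of all windows and by none of the other 7 members with a window (ERBB3 was not searched). AREG also held the GC box GGGCGG, as 42.6% of windows did. The AP-1 letters TGANTCA were in none of these 3 windows and in 6.57% of all windows. The STAT letters TTCNNNGAA were not found in them either, against 6.57% of all windows, nor were the C/EBP-ATF letters TGATGNAA, against 3.14%. A match of letters is a description and not evidence of a bound factor.

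Other genes of the pathway were listed by role. Of 65 genes, 59 were tested, 5 were higher in M5_O5 and 16 were lower, against 19.5% and 17.6% of all genes, and none passed the 2-fold threshold. Their median log2 fold change was -0.08. The split depended on scaling. With library size as the only scaling 10 were higher and 7 lower, and without M5 replicate 2 the number higher was 3.

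Among the other receptor and ligands, NRG1, the neuregulin that binds ERBB3, was higher in M5_O5 (log2 fold change 0.32 ± 0.08 SE, adjusted p = 0.00599), opposite to ERBB3. NRG4, a ligand of ERBB4, was at 0.08 (adjusted p = 0.735). ERBB4, EGF and NRG2 had at most 3, 1 and 25 counts in any library and were not tested, and NRG3 was not found among the genes of the table. Of 5 tested genes of ligand shedding, 3 were lower, against 17.6% of all genes. ADAM17, the main sheddase of AREG, TGFA and HBEGF, was at -0.23 (adjusted p = 0.00511), ADAM10, the sheddase of BTC, at -0.21 (adjusted p = 0.0146), and RHBDF1, an iRhom protein that carries ADAM17 to the cell surface, at -0.42 (adjusted p = 0.0011). RHBDF2, the other iRhom, was at 0.08 (adjusted p = 0.537).

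In the adapters and kinase cascade, 18 of 23 tested genes did not pass. The other 5 were lower, against 17.6% of all genes. They included SOS2, an exchange factor for RAS (log2 fold change -0.36, adjusted p = 0.000291), PIK3CA, a catalytic PI3K subunit (-0.28, adjusted p = 0.00297), MAP2K2, a kinase of ERK (-0.24, adjusted p = 0.00388), and NRAS (-0.20, adjusted p = 0.019). Of 17 tested inhibitors and turnover genes, 3 were lower and 1 higher, against 17.6% and 19.5% of all genes. SPRY4, a feedback inhibitor of RAS signaling, was at -0.44 (adjusted p = 0.00704), ERRFI1, which binds and inhibits the EGFR kinase, at -0.32 (adjusted p = 0.00306), and CBL, the ubiquitin ligase of EGFR, at -0.19 (adjusted p = 0.00779). PTPN1, a tyrosine phosphatase, was at 0.15 (adjusted p = 0.0455).

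Transcription targets of ERK were split, with 5 of 12 lower and 3 higher, against 17.6% and 19.5% of all genes. EPHA2, a receptor tyrosine kinase, was at -0.41 (adjusted p = 0.000369), DUSP7, an ERK phosphatase, at -0.4 (adjusted p = 0.000675), and FOSL1, an AP-1 subunit, at -0.39 (adjusted p = 0.0034). ETV5, an ETS factor, was at 0.51 (adjusted p = 0.000362). The other genes past the threshold were named after their values were seen. DUSP5 (-0.29) and DUSP6 (-0.23) were lower, and ETV4 (0.34) and DUSP4 (0.27) were higher.

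**Figure D5:**
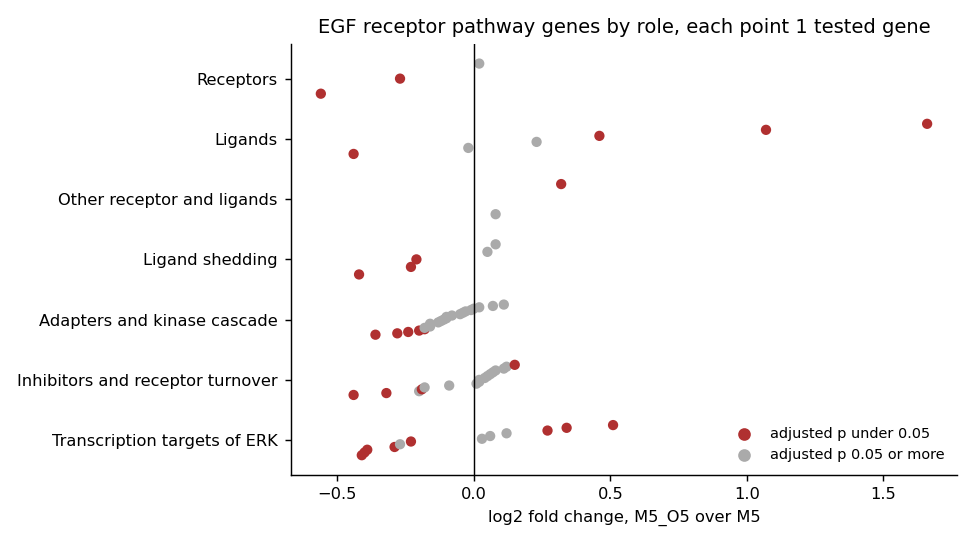
Log2 fold change of M5_O5 over M5 (x axis) of each tested gene, in rows by role, red where the adjusted p was under 0.05. AREG and EPGN are the points above 1, and no gene outside the ligands reaches 1 in either direction.

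The genes whose pattern over the 8 libraries was nearest to EGFR, by root mean square distance of centred log2(CPM + 1), were SPEN (0.0182), SLC35E2A (0.0207) and RIPK1 (0.0237). Their log2 fold changes were -0.27, -0.26 and -0.29. Nearest to AREG were SERPINE3 (0.153), IFIT2 (0.217) and LIF (0.222), with log2 fold changes of 1.94, 1.6 and 1.41. SERPINE3 had a mean of only 1.06 CPM in M5, and at such levels the added 1 makes differences smaller on the distance scale. The distances to AREG were larger, so AREG had no neighbour as close as EGFR had. AREG had 68 to 344 counts per library and EGFR 17401 to 20697. The part of counting noise in these distances was not tested.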

How the data were processed

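RNA of 8 HaCaT cultures was sequenced. According to the methods, the authors filtered reads, mapped them with HISAT2 and quantified them with StringTie. The submitters' processing notes name HISAT2 2.1.0, Bowtie2 2.2.5, RSEM 1.2.8 and build mm10, although the table lists human RefSeq transcripts. The annotation version and strand setting are not given in the sources used here, so reads of overlapping antisense genes, such as EGFR-AS1 at EGFR, cannot be told apart. The deposited table gives, for 86639 transcripts, an estimated count that was not normalized by the authors, TPM scaled by the authors to a fixed sum, and FPKM, which the authors divided by length and library size.

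Estimated counts (53.8% fractional) were summed to 17131 genes and rounded. Symbols came from RefSeq for 17072. Genes were filtered with filterByExpr, scaled by TMM and compared with the quasi-likelihood test of edgeR 4.0.16 (R 4.3.3), with Benjamini-Hochberg adjustment over 12434 genes. The biological coefficient of variation was 7.42%. The test was checked on simulated data. Exact permutation tests, two-sided, were run for single genes. Alternatives were DESeq2 1.42.0, limma 3.58.1 on log2(TPM + 1) and log2(TPM + 0.1), other scalings and filters, a 2-fold threshold, removal of the expression level trend, a replicate block and leaving out each library. The 9 genes, the pathway lists and the tests were chosen with earlier results of these data known, and tests of sums over the 9 genes were dropped. Genes named were the 9, their remaining ligands and receptor, the main shedding genes, PBK, up to 4 genes with the largest change past the threshold per role, and the 3 nearest patterns to EGFR and AREG. Replicates differed beyond counting noise in every pair (chi-square per gene 2.01 to 16.28), so all 8 were counted. Pairs with M5 replicate 1 had 10.23 to 16.28, against 2.01 to 4.02 among the other M5 libraries. Pairs with M5_O5 replicate 1 had 7.15 to 11.15, against 3.02 to 7.15 among the other M5_O5 libraries.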

Additional observations from a re-analysis of the deposited data

Results flagged for a closer look

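HBEGF in M5 replicate 1 stood apart from the other M5 libraries, with a CPM of 556.4 against 587.2 to 592.5. The gap was 0.854 of the group's range, above Dixon's critical value for 4 samples. This was 1 of 34 groups checked, of which chance would set apart about 1.7. M5 replicate 1 was also the library with the smallest total count. Without it the log2 fold change of HBEGF was -0.04 (edgeR adjusted p = 0.502).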

How the results depend on the processing

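Of 162 alternative values for the 9 genes, 148 kept their direction and their side of the threshold, 9 lost the call (EGFR and EREG) and 5 reversed. These were HBEGF, at 0.14 with the expression level trend removed, 0.1 with library size as scaling and 0.11 and 0.1 with limma on log2(TPM + 0.1) and log2(TPM + 1), and ERBB2, at -0.03 without M5_O5 replicate 3 (range -0.03 to 0.06 when leaving out each library). Neither gene passed with all 8 libraries and TMM scaling alone. With the trend removed as well, HBEGF passed as higher in M5_O5 (edgeR adjusted p = 0.0495). ERBB3, AREG, TGFA and EPGN kept their direction and an adjusted p under 0.05 in all 18 alternatives, although EPGN did not stay above 2-fold in all of them. With the 2-fold threshold 0 of the 9 genes were lower, 357 of all genes were higher and 41 lower. With library size as the only scaling 3858 of all genes were higher and 1008 lower, against 2420 and 2192, and limma on log2(TPM + 0.1) and log2(TPM + 1) left 768 and 761 lower. Other pathway genes higher in M5_O5 numbered 10 with the trend removed, 10 with library size and 9 with either limma scale, and those lower numbered 10, 7, 5 and 5. Leaving out a library gave 3 to 5 higher pathway genes and 14 to 19 lower ones, with 19 reached without M5 replicate 1. Without that library 5376 of all genes passed, against 4612. Scaling by library size or TPM moved the median of all genes upward, and the cause of the other shifts was not tested. Whether the replicate numbers pair the samples was not settled. Correlations above 0.1 were found in 2 of 4 same-numbered pairs and in 2 of 12 different-numbered pairs. Not every sample correlated best with its own number. The replicate block called 5255 genes against 4612 and changed no call among the 9 genes (EREG adjusted p = 0.00762). Depth limits BTC and EPGN most.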
